A study of Arabidopsis thaliana with 6 samples.

Results

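The sulphur group described here holds 10 genes of Arabidopsis thaliana that are known to respond to low sulphur or to act in the uptake and reduction of sulphate. They were chosen by gene identifier: BGLU28 (AT2G44460), GGCT2;1 (AT5G26220), LSU1 (AT3G49580), LSU2 (AT5G24660), SDI1 (AT5G48850), APR1 (AT4G04610), APR2 (AT1G62180), APR3 (AT4G21990), SULTR1;1 (AT4G08620) and SHM7 (AT1G36370). Of these, 4 are among the 1336 genes that the authors listed as changed in the sams3 mutant, all as higher, and 6 are in neither list. The sams3 plants carry a mutation in S-adenosylmethionine synthetase 3, an enzyme that joins methionine and ATP into the methyl donor S-adenosylmethionine. They were compared with L119, a transgenic line that served as wild type; the labels give L119 as the ecotype of both genotypes and do not say what the transgene is. Whole seedlings were sampled at 15 days after growth at 22 °C on MS agar with sucrose, with 23 h of light a day. There were 2 RNA libraries of each genotype, and nothing in the labels says that the 2 came from separate cultures, so the p-values reflect how far these libraries differ among themselves, and that spread may be only technical.

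Plants take up sulphur as sulphate through transporters of the SULTR family in the root. Sulphate is activated to adenosine phosphosulphate (APS) by ATP sulphurylase, reduced to sulphite by the APR enzymes and to sulphide by sulphite reductase, and then joined to O-acetylserine to form cysteine. From cysteine the plant makes methionine, and from that S-adenosylmethionine, as well as glutathione. When sulphate runs short, the transcription factor SLIM1 raises transporter genes and a set of marker genes (LSU, SDI1, GGCT2;1 and BGLU28 among them), and stored sulphur compounds such as glucosinolates are broken down. APR3, LSU1, GGCT2;1, SDI1 and SHM7 are also known to rise together when O-acetylserine builds up. SHM7, also called MSA1, is a serine hydroxymethyltransferase that is known to support S-adenosylmethionine levels and DNA methylation, which ties the sulphur response to the pathway that the sams3 mutation affects.

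The deposited values are the authors' log2 fold changes, sams3 over L119, and the p-values of that comparison, without levels per library or standard errors. Each list holds only genes that the authors found changed by at least 2-fold with a p-value under 0.0001. A gene outside both lists missed the fold limit, the p limit or both, or was not tested, and these cases cannot be told apart. In whole seedlings, a change in RNA per cell and a change in the share of cells that make the RNA cannot be told apart either. Since the number of genes tested is not known, the protein-coding genes of the RefSeq table stand in as the background: 3.11% of these 27562 genes are listed as higher and 1.57% as lower. Had the authors tested only a subset of these genes, the shares among tested genes would be higher.

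Of the 5 deficiency markers in the group, 4 rose in sams3 (BGLU28, GGCT2;1, LSU1 and LSU2), 0 fell and SDI1 was not listed. With the remaining 5 members, none of which was listed, this makes 4 of 10 members higher, or 40.0%, beside 3.11% of protein-coding genes, and 0 of 10 lower, beside 1.57%. The members were chosen with earlier results of these data known, so the size of that share is a description and not a test. Rises of the 4 markers were moderate, between 2.60-fold and 3.78-fold, and all 4 have log2 values under 2. The median rise of all 894 genes listed as higher was 3.06-fold.

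BGLU28, a beta-glucosidase encoded on chromosome 2, had the largest rise of the 4 listed members. Together with BGLU30 it is known to break down glucosinolates, the sulphur-rich defence compounds of this plant family, when sulphur is short. The authors' deposited table gives a log2 fold change of 1.92 for BGLU28, which is 3.78-fold, with p = 3.67e-36. Among the 894 genes listed as higher this was rank 327 by fold and rank 316 by p-value, so that 36.5% of these genes had a larger rise.

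GGCT2;1 on chromosome 5 encodes a gamma-glutamyl cyclotransferase of the ChaC family, which splits glutathione in the cytosol and so frees its cysteine part for reuse. The authors' deposited table gives it a log2 of 1.67, or 3.17-fold (p = 1.25e-18), at rank 419 of 894 by fold and 482 by p-value. Its fold was larger than those of LSU1 and LSU2, yet its p-value was the largest of the 4 members. Neither of its paralogs GGCT2;2 and GGCT2;3 was listed.

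LSU genes encode small coiled-coil proteins that bind many partners and are named for their response to low sulphur. For LSU1 on chromosome 3 the authors' deposited table gives a log2 fold change of 1.38 (2.60-fold, p = 2.34e-38). LSU2 on chromosome 5 stands in the authors' deposited table at 1.47 (2.76-fold, p = 6.70e-29). Of the 4 members that rose, LSU1 had the smallest fold, rank 561 by fold among higher genes, and at rank 301 also the smallest p-value. LSU2 was at rank 508 by fold and 367 by p-value.

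The LSU family has 4 genes in the reference, and 3 of them rose, or 75.0%, beside 3.11% of protein-coding genes. LSU1 and LSU2 are themselves members, so this share is a description and not a test. LSU3 (AT3G49570), which is not one of the 10 members and lies next to LSU1, is at 1.70 on the log2 scale in the authors' deposited table (3.25-fold, p = 1.91e-25). LSU4 (AT5G24655), which lies next to LSU2, was not listed. The log2 values of LSU1, LSU2 and LSU3 span 0.32, and without standard errors in the deposited lists no test between them is possible. The deposited descriptions name LSU3 as the closest protein to LSU1, LSU2 as the closest to LSU3 and LSU4 as the closest to LSU2. Reads shared between such paralogs could be divided among them by the authors' counting, so their single values are uncertain, LSU4 included.

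**Figure D1:**
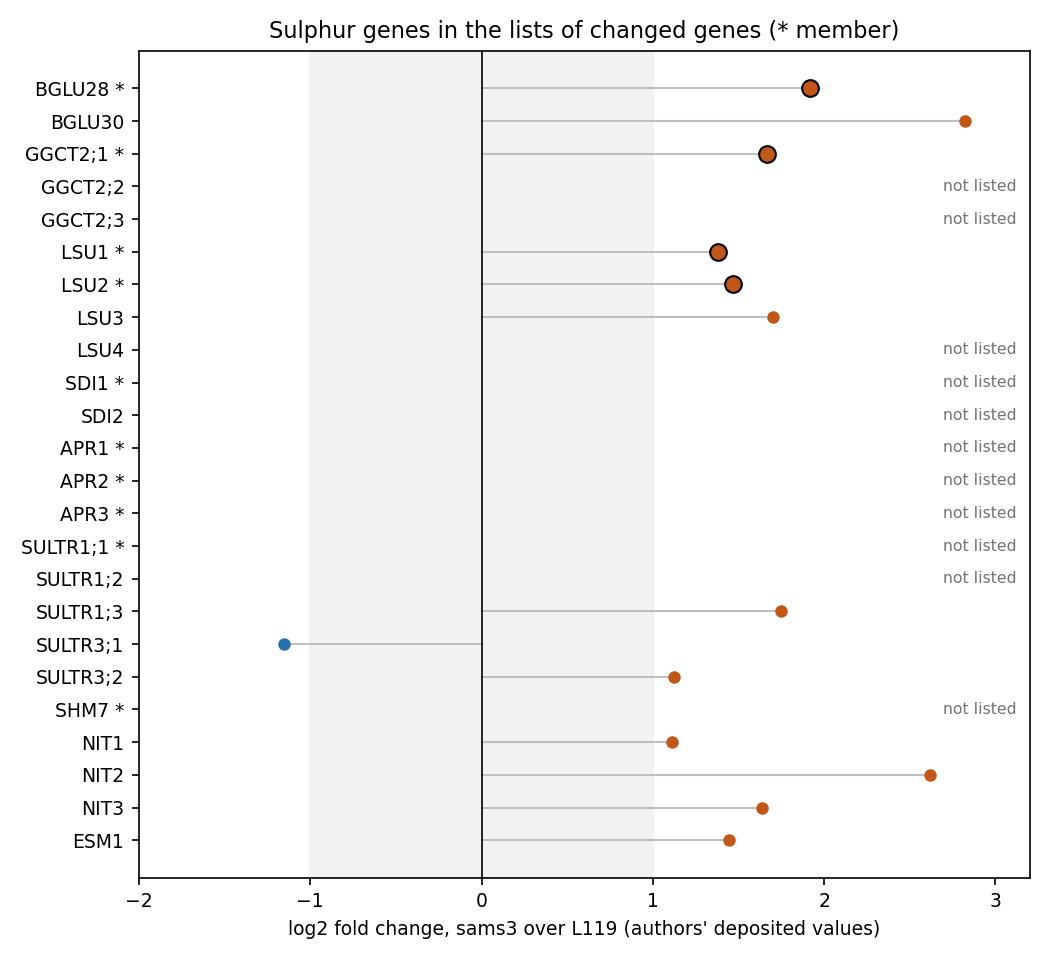
Log2 fold change, sams3 over L119, of the 10 members (asterisk, black rim) and of related sulphur genes, as deposited by the authors; orange points are higher and the blue point lower in sams3, and the grey band marks changes under 2-fold, which the lists leave out. BGLU28, GGCT2;1, LSU1 and LSU2 sit between 1.38 and 1.92, whereas SDI1, the 3 APR genes, SULTR1;1 and SHM7 have no value.

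SDI1 encodes a protein known to lower glucosinolate synthesis when sulphur is short, and is a well-known marker of sulphur deficiency. It was not listed in either direction, and the same holds for its paralog SDI2 (AT1G04770). BGLU30 (AT3G60140), the paralog of BGLU28 that acts with it in glucosinolate breakdown, rose more than each of the 4 listed members; the other 6 have no value. In the authors' deposited table BGLU30 is at 2.82 on the log2 scale, or 7.07-fold (p = 7.03e-99), at rank 150 of 894 by fold and 89 by p-value. BGLU30 is also known as DIN2, for its rise in darkness and when sugar is short, so it is not a marker of sulphur alone. Of the 4 paralogs of the marker genes (LSU3, LSU4, SDI2 and BGLU30), 2 were therefore higher, 0 lower and 2 not listed.

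None of the members that act in the reduction of sulphate was listed. The 3 APR genes encode the APS reductases of the plastid, the main control point of the pathway, and APR1, APR2 and APR3 are all outside both lists. The genes that act just before and after them were not listed either. These are the ATP sulphurylase genes (APS1 to APS4), with 0 of 4 listed, and sulphite reductase (SIR), with no entry. Also counted were the APS kinase genes (APK1 to APK4), which use APS in a branch beside its reduction, with 0 of 4 listed. These 9 genes of activation and reduction, like the 13 genes of cysteine synthesis, thus include 0 higher and 0 lower genes. At the background shares of 3.11% higher and 1.57% lower, lists this short often hold no listed gene. The counts, that of the 3 APR genes included, therefore do not set these genes apart. Cysteine synthesis was taken as the 5 serine acetyltransferase genes and 8 genes of the O-acetylserine (thiol) lyase family, among them OASA1, OASB and OASC. These 8 were taken by family, and not all of them serve mainly to make cysteine.

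SULTR1;1, on chromosome 4, encodes a high-affinity transporter of root epidermis and cortex that is strongly raised by sulphate shortage. It was not listed, nor was SULTR1;2, the other main uptake transporter of the root. Of the 11 SULTR genes besides SULTR1;1, 2 rose, 1 fell and 8 were not listed. This is 18.2% higher and 9.09% lower, beside 3.11% and 1.57% of protein-coding genes, and the lower share rests on 1 gene. SULTR1;3, which moves sulphate in the phloem, stands at a log2 of 1.75 in the authors' deposited table (3.36-fold, p = 1.49e-09). SULTR3;2 was at 1.12 in the authors' deposited table (2.18-fold, p = 2.58e-09).

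SULTR3;1, a transporter of the chloroplast envelope that brings sulphate to the site of its reduction, was the transporter that fell. The authors' deposited table gives it a log2 of -1.15, which is 2.22-fold lower, with p = 2.45e-46. By p-value it was at rank 91 of the 442 lower genes, whereas SULTR1;3 and SULTR3;2 were at ranks 688 and 692 of the 894 higher genes. SULTR2;1, SULTR2;2, SULTR4;1 and SULTR4;2, which serve transport in the vascular tissue and export from the vacuole, were not listed. Root and shoot markers were counted as well: 0 of 9 root markers were listed, among them EXPA7, SCR and CASP1. Of 6 shoot markers, 0 were higher and 2 lower, or 0% and 33.3%, beside 3.11% and 1.57% of protein-coding genes. The 2 were the near-identical light-harvesting genes LHCB2.1 (log2 of -1.12 in the authors' deposited table) and LHCB2.2 (-1.10). The other 4 were not listed, RBCS1A among them. Lists this short, with 1 pair of near copies, give no measure of tissue shares. Any link of these markers to the SULTR3;1 value was not tested.

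SHM7 was not listed, and neither was any of the other 6 serine hydroxymethyltransferase genes SHM1 to SHM6. These enzymes take a one-carbon unit from serine, which feeds methionine synthesis. The lists likewise hold 0 of 8 genes of glutathione synthesis and turnover besides GGCT2;1, among them GSH1 and GSH2, which make glutathione, and GGT1, which starts its breakdown outside the cell. Of the regulators, SLIM1 and HY5 were not listed. With 3.11% of protein-coding genes listed as higher and 1.57% as lower, sets as small as these often hold no listed gene. SLIM1 acts on the deficiency markers, and HY5 is a light-signalling factor known to act on APR genes.

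**Figure D2:**
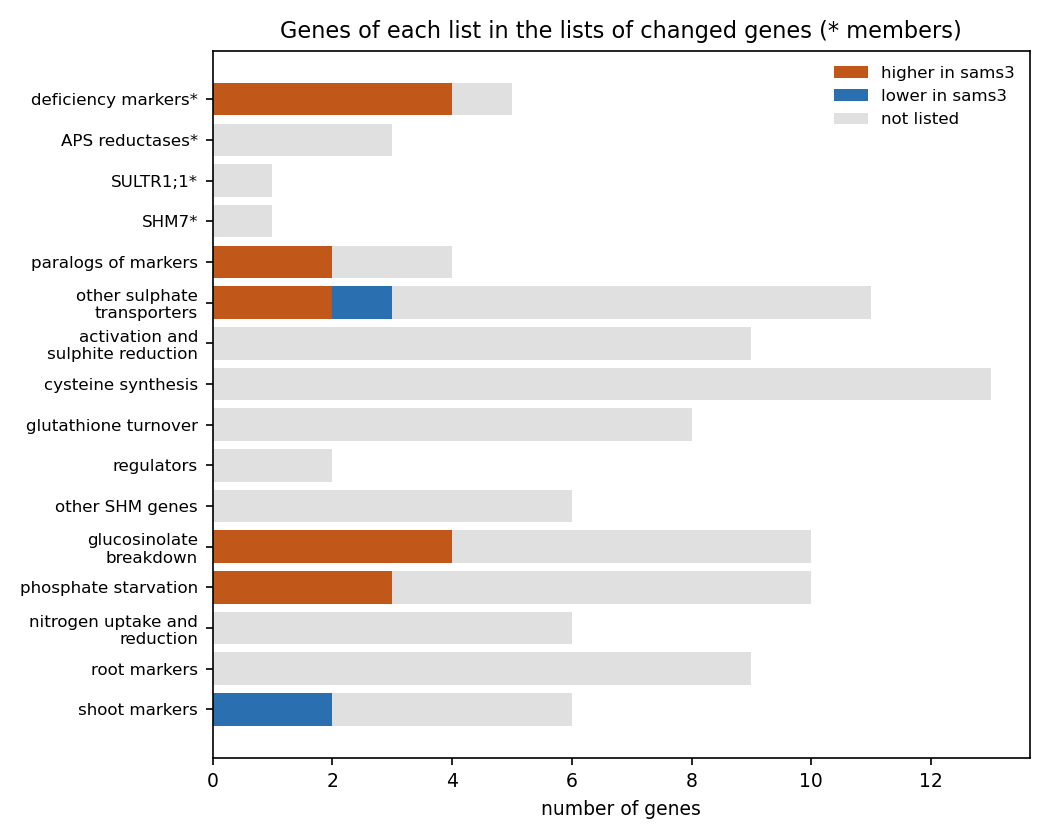
Number of genes in each list that the authors listed as higher (orange) or lower (blue) in sams3, or in neither list (grey); an asterisk marks lists made of members. Rises are in the lists of deficiency markers (4 of 5), paralogs of LSU, SDI and BGLU markers (2 of 4) and other sulphate transporters (2 of 11). Glucosinolate breakdown (4 of 10) and phosphate starvation (3 of 10) hold rises too. The lists of activation, cysteine synthesis, glutathione turnover and nitrogen genes have none. GGCT2;1 is counted with the markers, and its paralogs GGCT2;2 and GGCT2;3 with glutathione turnover. Of protein-coding genes, 3.11% were listed as higher and 1.57% as lower, so short lists often hold none.

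Genes of glucosinolate breakdown, the process in which BGLU28 acts, were counted without BGLU28 and BGLU30, which are in the lists above. The 10 genes included 4 higher and 0 lower, or 40.0% and 0%, beside 3.11% and 1.57% of protein-coding genes. The nitrilases NIT1, NIT2 and NIT3, which turn nitriles from glucosinolates into acids and ammonia, all rose. NIT2 stands at a log2 of 2.62 in the authors' deposited table (6.14-fold), with its p-value listed as 0. NIT3, whose deposited description names a response to sulphate starvation, was at 1.64 in the authors' deposited table (3.11-fold, p = 2.44e-103). NIT1 was at 1.11 in the authors' deposited table (2.16-fold, p = 1.41e-72). These 3 genes are neighbours and near copies, and reads could be divided among them, which leaves each value uncertain. The share of 40.0% thus rests mostly on near copies. The fourth was ESM1, which favours isothiocyanates over nitriles as products (log2 of 1.44 in the authors' deposited table, 2.72-fold, p = 2.26e-126). The myrosinases TGG1 and TGG2, the atypical myrosinase PEN2 and the specifier proteins ESP, NSP1 and NSP5 were not listed.

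**Figure D3:**
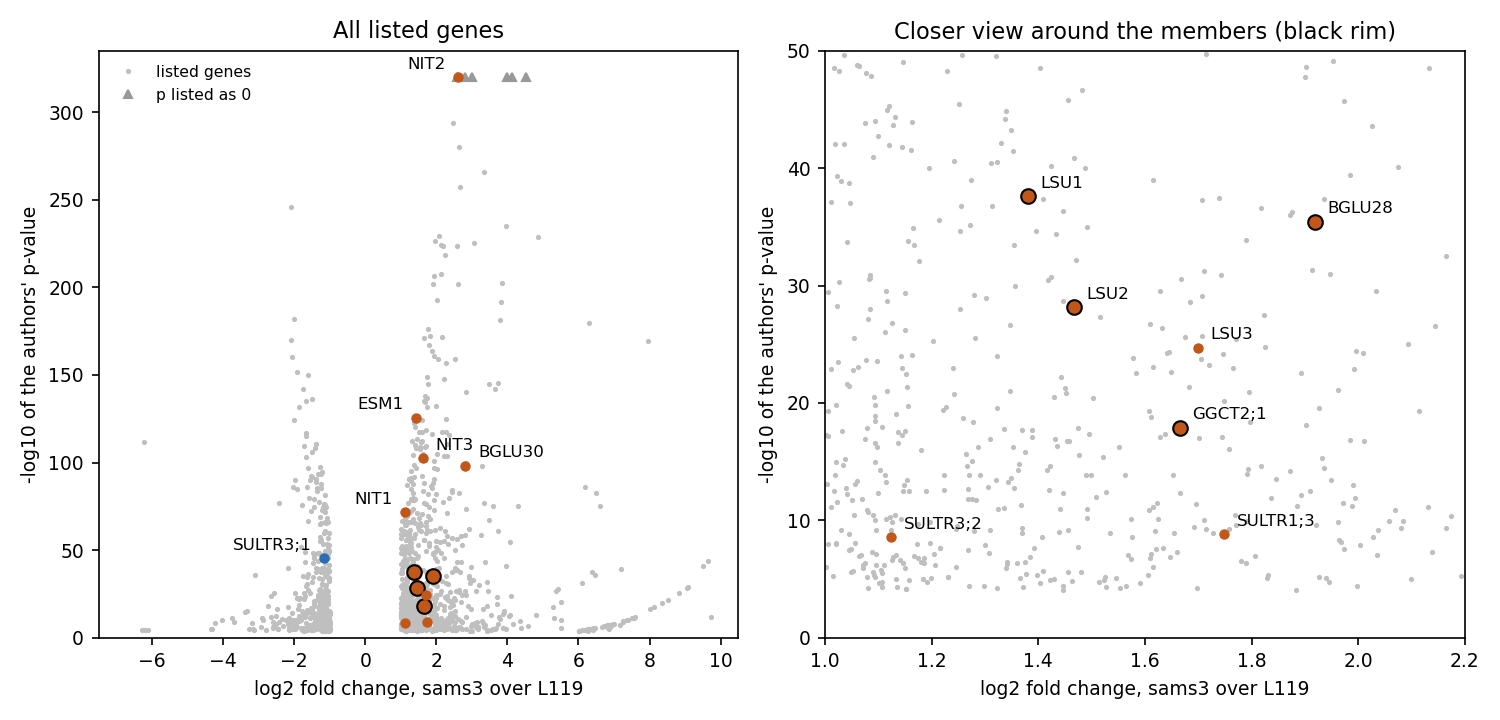
Log2 fold change (x axis) against -log10 of the authors' p-value (y axis) for all 1336 listed genes (grey, left) and for a closer view of the higher genes (right); members have a black rim, and triangles at the top are genes whose p-value is listed as 0. BGLU28, GGCT2;1, LSU1 and LSU2 lie at p-values from 1.25e-18 to 2.34e-38, in the middle of the higher genes, and BGLU30 and the NIT genes have smaller p-values.

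Over the 8 lists of other sulphur genes, 63 genes in all, 8 were higher and 1 was lower, or 12.7% and 1.59%, beside 3.11% and 1.57% of protein-coding genes. Within the 47 of these that leave out the SHM and glucosinolate lists, 4 were higher and 1 lower, or 8.51% and 2.13%. The share listed as higher was thus smaller than over all 63, and the lower share was near the 1.57% of protein-coding genes. The higher share among other sulphur genes thus comes from BGLU30, LSU3, SULTR1;3, SULTR3;2, ESM1 and the 3 NIT genes, and 54 of the 63 were not listed. Markers of other nutrients were counted in the same way. Of 10 phosphate starvation genes, 3 were higher and 0 lower, or 30.0% and 0%, beside 3.11% and 1.57% of protein-coding genes. The share listed as higher was 40.0% for the 10 sulphur members. In the authors' deposited table the log2 was 1.24 for the phosphatase PS2, 1.12 for the acid phosphatase PAP17 and 1.02 for the phospholipase PLDZ2. Those 3 rises are smaller than the smallest among the 4 listed sulphur members, LSU1 at 1.38, though not smaller than all other sulphur genes, with SULTR3;2 at 1.12 and NIT1 at 1.11. Of 6 genes of nitrogen uptake and reduction, among them NRT2.1 and NIA1, 0 were listed, which is common for so short a list. Whether the sulphur and phosphate lists differ was not tested.

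In the order of protein-coding genes on the chromosomes, 5 of the 10 members had a listed gene within 3 places (BGLU28, LSU1, APR1, APR3 and SULTR1;1). How many protein-coding genes in general have one was not counted. The 4 members that rose have 24 neighbours within 3 genes on either side, of which 2, or 8.33%, were listed. The share around the 6 members that were not listed was the same, 3 of 36 or 8.33%, and 4.68% of all protein-coding genes were listed in either direction. These shares rest on few genes. Both listed neighbours of the members that rose are paralogs of the member itself, LSU3 beside LSU1 and the beta-glucosidase gene BGLU17 (AT2G44480) near BGLU28. BGLU17 had a log2 of 1.95 in the authors' deposited table (p = 1.07e-31), close to that of BGLU28 at 1.92, while BGLU15 and BGLU29, the genes on either side of BGLU28, were not listed.

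The 3 listed neighbours of members that were not listed went in different directions. AT4G08593, next to SULTR1;1, had a log2 of 6.27 in the authors' deposited table with p = 7.24e-05, close to the p limit of the lists. Lower were AT4G04630 near APR1 (log2 of -1.50 in the authors' deposited table) and AT4G21970 near APR3 (-2.93).

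**Figure D4:**
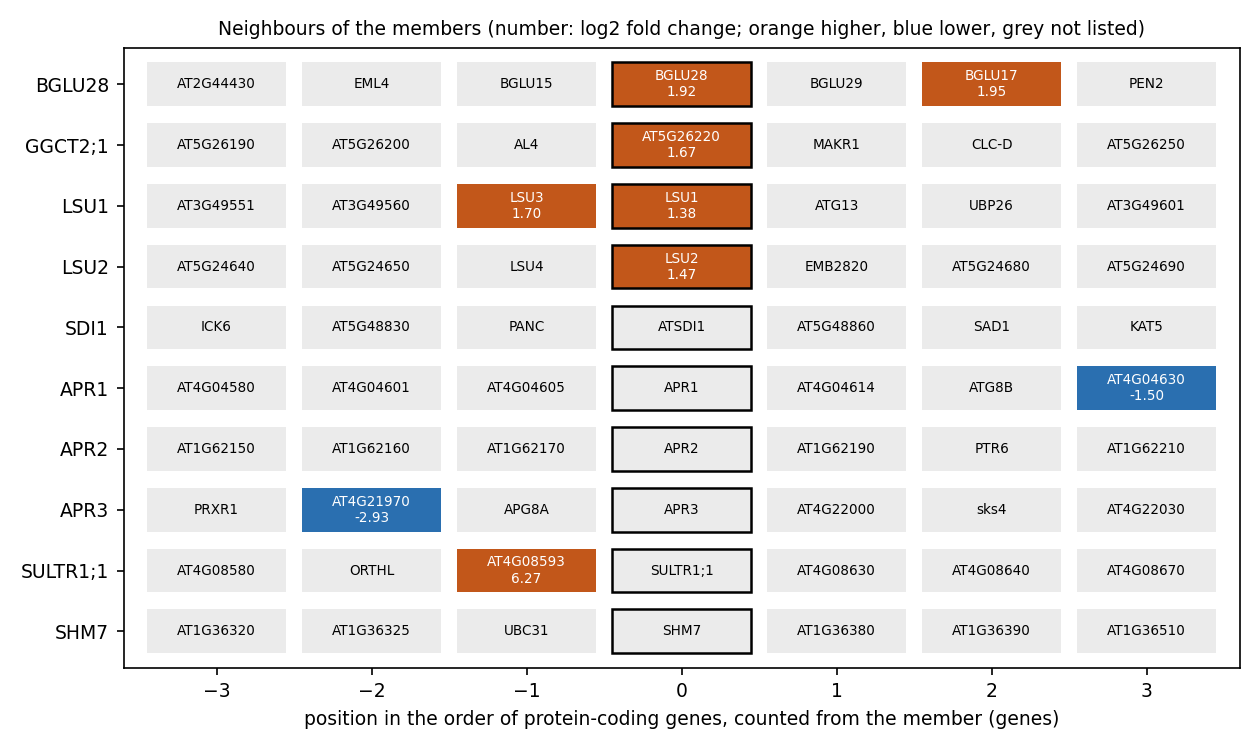
Protein-coding genes up to 3 places before (negative) and after (positive) each member in the RefSeq gene order; boxes are orange where the gene was higher in sams3, blue where lower and grey where not listed, and the number is the log2 fold change. LSU3 and BGLU17 are the listed neighbours of the members that rose, and both belong to the family of that member.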

How the data were processed

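Seedling RNA of sams3 and L119 was compared by the authors, who deposited lists of changed genes. The log2 fold changes and p-values are the authors' deposited values; per the file headers, a gene had to change at least 2-fold and have p under 0.0001 to be kept. No source used here says whether these p-values were corrected. Bismark, Bowtie2, edgeR and the build TAIR10 are named in the submitters' processing notes, without versions. The depth of each library is unknown and no levels per library were used, so no test was run here and p-values are the authors'.

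Members and the other gene lists (104 genes in 16 lists) were matched by identifier; all were found in the RefSeq table (assembly TAIR10.1), which gave symbols, gene types and gene order. Its build name differs, so no coordinates are given. Folds and ranks within each direction were computed with Python 3.11.15, pandas 2.3.3 and numpy 2.4.6, and figures with matplotlib 3.10.9. All members and every listed gene of the sulphur lists are named, and up to 3 genes of each other list; neighbours were named after their values were seen. The members and lists were chosen with earlier results of these data known. Bisulfite libraries and transposable element lists were not analysed here.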

Additional observations from a re-analysis of the deposited data

How the results depend on the processing

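With an absolute log2 of at least 1.5, 2 of the 4 members that rose stayed (BGLU28 and GGCT2;1), as did 5 higher and 0 lower of the other sulphur genes. Once an absolute log2 of at least 2 was asked for, these counts were 0, 2 and 0; both settings keep fewer genes by construction. A Bonferroni p-value over all 38094 reference loci (1.31e-06) left all counts as they were. Counting near copies once, an alternative added after the data were seen, left out LSU2 among members and NIT1 and NIT2 among the others. It gave 3 members and 6 higher and 1 lower of the other sulphur genes, with LSU3 still counted. Taken over all reference loci, 2.35% were listed as higher and 1.16% as lower. No paired analysis was possible because the lists hold no values per library. For the same reason leaving out replicates, another normalization, pseudocount, filter or tool was not run. The planned promoter motif and protein identity were not run either. Library depth is unknown, so genes outside the lists cannot be called unchanged.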

Other observations

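BGLU28 and BGLU30 belong to a larger family, and sets in this part were chosen after values had been seen. Of 47 BGLU genes in the reference, 8 (17.0%) were higher and 0 lower in the authors' deposited table, beside 3.11% and 1.57% of protein-coding genes, with log2 values from 1.13 to 2.82. Besides BGLU28, BGLU30 and BGLU17 these were BGLU24 (2.38 in the authors' deposited table), BGLU45 (1.47), BGLU44 (1.28), BGLU11 (1.18) and BGLU46 (1.13). Among genes known to rise in darkness or sugar shortage, a set put together after the value of BGLU30 (DIN2) had been seen, directions were mixed. DIN11 was at 2.27 and the asparagine synthetase gene ASN1 at -1.50 in the authors' deposited table, while SEN1 and DIN10 were not listed.

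Listed genes whose deposited descriptions name sulphur in any form numbered 29, of which 21 were higher and 8 lower, or 72.4% higher, near the 66.9% of all listed genes. Leaving out those that name only a disulphide, a choice made after values were seen, removed 7 of the 8 lower genes and left 17 higher and 1 lower, SULTR3;1. Of these, 11 higher genes are outside the lists above. They include 4 of the 9 genes (44.4%, beside 3.11% of protein-coding genes) for methionine sulphoxide reductases of type B, enzymes that repair oxidised methionine. In the authors' deposited table MSRB7 was at 1.66, MSRB9 at 1.57 and MSRB8 at 1.02 on the log2 scale, and MSRB5 was the other. MSRB7, MSRB8 and MSRB9 carry consecutive identifiers and are related copies, which leaves each value uncertain. The sulphotransferases ST4B (1.39) and ST2A (1.32), the latter known to add sulphate to a hydroxylated jasmonate, and SUFE2 (1.63), of the assembly of iron-sulphur clusters, were also higher in the authors' deposited table. So were the precursors of the sulphated peptide phytosulfokine PSK2 (1.87) and PSK5 (1.29). The remaining genes of the 11 were AO4 (2.41 in the authors' deposited table) and ERO1 (1.44). Their descriptions name an iron-sulphur binding site and an activity on sulphur groups, so the set is a match of words and not of sulphur metabolism. Descriptions opening with glutathione S-transferase belonged to 11 higher and 0 lower genes. They were counted among listed genes only, of which 66.9% were higher. The size of this family was not counted, so no share of it can be set beside that of protein-coding genes. Any link to GGCT2;1 was not tested.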
